A study of Mus musculus with 12 samples.

Results

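The genes described here encode the proteins of the mitochondrial ribosome, measured by RNA-seq in sorted brain endothelial cells of old and young mice. They are the rows of the expression table whose symbol is Mrpl or Mrps followed by a number and at most 1 letter a, b or c, with a mean normalized count of at least 10 over the 12 samples. This rule gave 77 genes of the 24015 symbols in the table, 48 named for the large subunit (Mrpl) and 29 for the small subunit (Mrps). All 77 passed the filter on low values, which left 12777 genes for testing, and 0 matching symbols fell below it.

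Both groups were wild-type C57BL/6 mice, aged 19 months (old, 6 samples) or 3 months (young, 6 samples), with no treatment named. Each sample pooled cortex and hippocampus of 2 mice, from which endothelial cells were sorted by flow cytometry. Whether pools of an age came from separate animals is not stated in the labels, and the p-values refer to the variation among the pools only. The design holds a single comparison, old against young.

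Mitochondria keep a small genome of their own, whose messenger RNAs all encode subunits of the respiratory chain and ATP synthase. These messages are translated inside the organelle by a dedicated ribosome. Its RNA comes from the mitochondrial genome, but every one of its proteins is encoded in the nucleus, made in the cytosol and imported. Around a core of proteins with bacterial relatives, the mammalian particle carries many proteins that bacteria lack. Brain endothelial cells have long been described as rich in mitochondria, which supply the transport work of the blood-brain barrier.

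The sequences of 5 promoters are shown because their genes mark the ends of the comparison with age: Mrpl23 and Mrpl32 had the 2 highest folds of all, Mrpl17 and Mrps6 the lowest of their subunits, and Mrps26 the smallest p of the small subunit. Each line gives the 100 bases before the RefSeq transcription start, in build GRCm38.p6. Capitals mark a match to 1 of 3 motifs known from promoters of mitochondrial genes: GCGCA, any base N and GCGC for NRF1, CCGGAAG for the core of ETS factors such as the GA-binding protein, and AAGATGGC for YY1, each searched on both strands.
Mrpl23, chr7:142532932-142533031, plus strand: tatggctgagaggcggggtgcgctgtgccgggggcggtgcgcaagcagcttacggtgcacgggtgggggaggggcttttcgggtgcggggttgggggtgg
Mrpl32, chr13:14613038-14613137, minus strand: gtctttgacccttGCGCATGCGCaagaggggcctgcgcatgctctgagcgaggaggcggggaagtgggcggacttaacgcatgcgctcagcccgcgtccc
Mrpl17, chr7:105811088-105811187, minus strand: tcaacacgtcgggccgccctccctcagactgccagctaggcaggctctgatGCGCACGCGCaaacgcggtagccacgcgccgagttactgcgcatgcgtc
Mrps26, chr2:130563657-130563756, plus strand: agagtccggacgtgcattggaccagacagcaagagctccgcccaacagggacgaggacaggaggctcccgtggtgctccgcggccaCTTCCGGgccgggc
Mrps6, chr16:92058236-92058335, plus strand: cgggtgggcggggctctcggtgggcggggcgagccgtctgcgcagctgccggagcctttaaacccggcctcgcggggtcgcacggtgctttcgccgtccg
Mrpl32 (log2 fold 0.40) and Mrpl17 (-0.15) held the NRF1 letters within these 100 bases. Neither fold passed, and whether motifs went with the folds was not tested. Mrps26 held the ETS core on the opposite strand, next to the start. No capitals stand in the lines for Mrpl23 and Mrps6, which says only that these letters are not in this window.

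Over the whole RefSeq windows (250 bases before to 50 after the start), 68 of the 77 genes were matched, with 74 windows. The ETS core was found in 33.8% of the windows of these genes, against 16.8% of the windows of all genes tested and 8.86% of all promoters. The NRF1 letters stood in 17.6%, against 9.75% and 4.60%, and the YY1 letters in 16.2%, against 4.24% and 2.75%. At least 1 of the 3 motifs was present in 56.8% of the windows, against 27.4% of those of all genes tested. The last 3 letters of the ETS core can be the first 3 of the YY1 motif, so a single stretch can count for both. The median GC content of the windows was 58.5%, and 61.0% for the genes tested. A match is a description of letters, not a binding site.

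Another shared feature was position. A protein-coding gene on the opposite strand with its start within 1000 bases was annotated for 33 of the 77 genes (42.9%), against 1910 of 11799 tested genes (16.2%). Mrpl46 and Mrps11, a large and a small subunit gene, start beside each other. Other pairs joined Mrpl36 with Ndufs6 and Mrpl47 with Ndufb5, both subunits of respiratory complex I, Mrps12 with Sars2, the mitochondrial seryl-tRNA synthetase, and Mrpl32 with Psma2, a proteasome subunit. In some pairs, among them Mrpl46 with Mrps11 and Mrpl47 with Ndufb5, the starting ends of the genes overlapped, while other pairs left a gap.

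As the background to the samples, the libraries held 25809500 to 40393800 reads in genes. All 10 endothelial markers (among them Cldn5, Pecam1 and Cdh5) were detected, with summed levels of 507884 to 626407 normalized counts in old and 618395 to 664740 in young samples, and 2 of the 10 were lower in old. Their median log2 fold was -0.33, with 1 of the 10 above 0. Of the 10, 5 had an unadjusted limma p under 0.05 (all genes: 23.8%). Lists of markers of other cell types differed in how they compared between the ages. By limma 3.73% of all tested genes were higher in old samples and 3.21% lower. Of the 8 tested oligodendrocyte and the 8 tested microglia and macrophage markers 0 passed. Of the 8 tested fibroblast and meningeal markers 1 was higher and 1 lower. The 10 astrocyte markers summed to between 10836 and 43263 in old and 5713 and 36070 in young samples (1 higher, 0 lower), and the 10 markers of pericytes and smooth muscle to 1237 to 11864 against 2719 to 18350 (0 higher, 2 lower). All 10 astrocyte markers had a log2 fold above 0 (median 1.77), and 8 had an unadjusted limma p under 0.05. Of the 10 pericyte and smooth muscle markers 0 lay above 0 (median -1.36), and 6 had such a p. Neuron markers summed to 6116 to 12124 in old and 2956 to 3662 in young samples, with 1 of the 5 tested higher. Nearly all of that sum was Stmn2, a tubulin-binding protein, at 5722 to 11174 in old and 2602 to 3349 in young samples. The other 9 neuron markers together summed to 132 to 950 in old and 150 to 491 in young samples. The 10 blood cell markers summed to 112 to 9668 in old and 1835 to 8027 in young samples. Of the 5 tested, 0 were higher or lower, with a median log2 fold of -1.05. Among the 10, the hemoglobin genes Hbb-b1 and Hba-a1 and the T cell gene Cd3e were at 0 in every sample.

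No gene of the mitochondrial ribosome passed the limma test between the ages. In that fit, 0 of 48 large subunit and 0 of 29 small subunit genes were higher or lower in old samples at an adjusted p under 0.05, in a table where 6.94% of all tested genes passed (3.73% higher, 3.21% lower). The same was found with edgeR on the recovered reads (0 of 77; 6.05% of all genes passed, 3.47% higher and 2.58% lower), while DESeq2 called 1, Mrpl23, as higher (10.2% of all genes, 5.43% higher and 4.81% lower). At an unadjusted p under 0.05 edgeR had 9 and DESeq2 11 of the 77, all higher, where 11.5% and 11.8% of all genes were higher at that p. At an unadjusted limma p under 0.05 there were 6 higher, 3 in each subunit, and 0 lower, or 7.79% of the 77 against 23.8% of all genes tested (11.7% higher, 12.1% lower). Complete separation of the ages was found for 0 of the 77 genes (all genes: 2.18% with every old sample above, 2.11% with every old sample below). In bulk samples, fewer cells of a type and less RNA per cell cannot be told apart.

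The comparison was narrow enough to bound most changes. The standard error of the log2 fold ran from 0.09 to 0.24, with a median of 0.14. For 76 of the 77 genes the 95% interval of the fold stayed within 2-fold in either direction, and for 59 within 1.5-fold. The exception to the first was Mrpl23, whose interval reached 2.10-fold. A 1.5-fold rise lay inside the interval of 17 genes and a 1.5-fold fall inside that of 1, Mrps6.

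**Figure D1:**
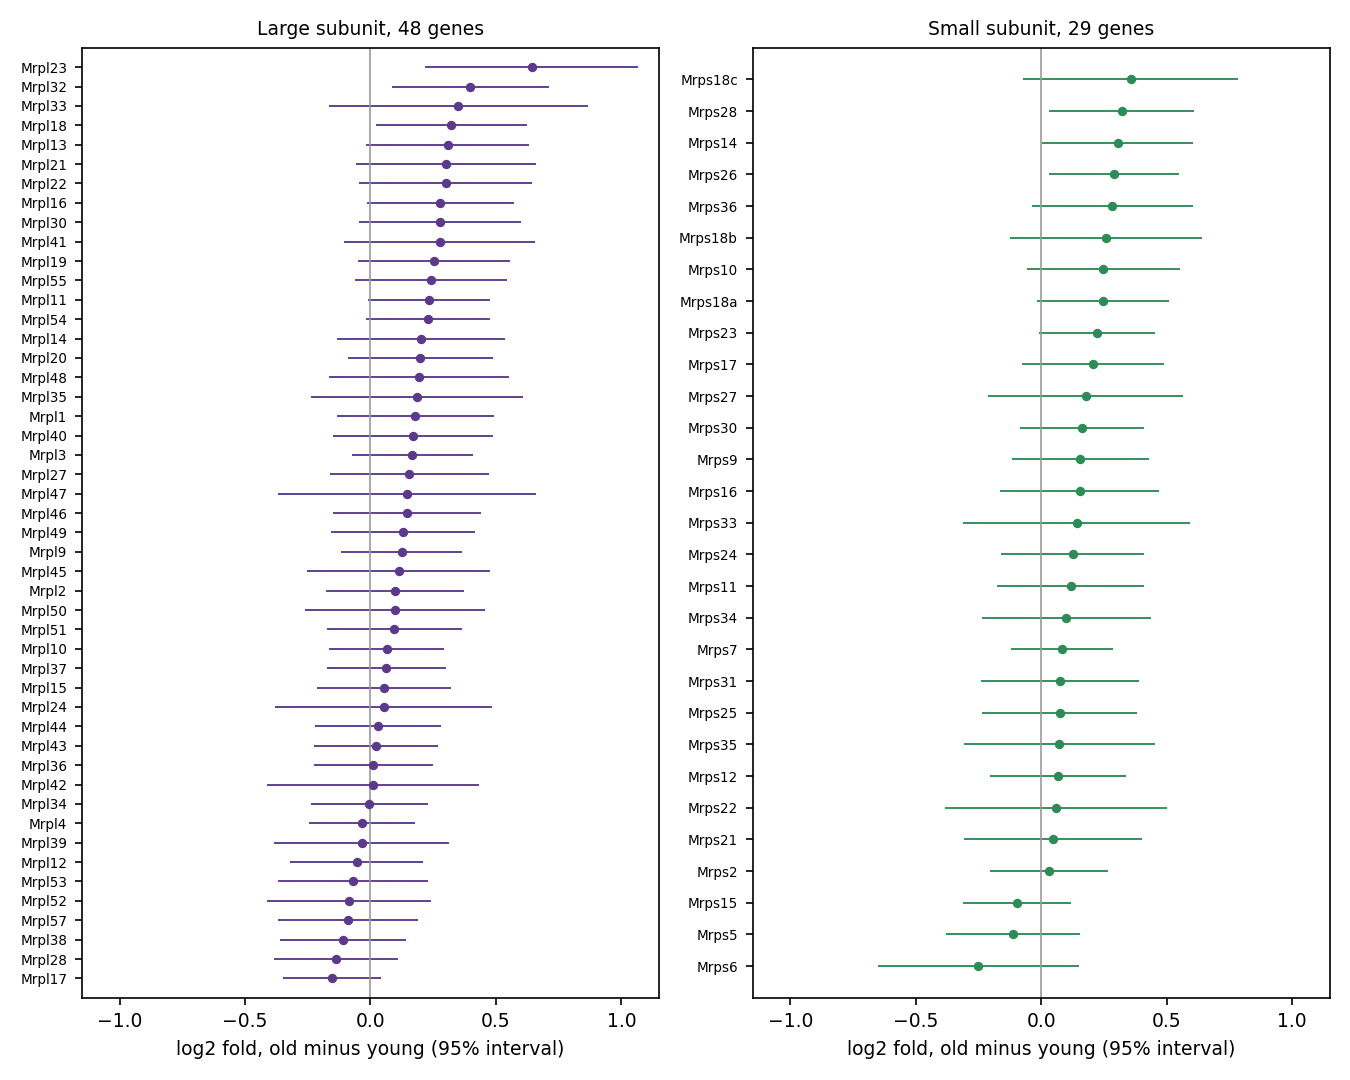
Log2 fold, old minus young, with its 95% confidence interval for each of the 77 mitochondrial ribosomal protein genes, large and small subunit apart (limma, 6 samples per age). Folds run from -0.15 to 0.64 in the large and from -0.25 to 0.36 in the small subunit, and Mrpl23 has the highest.

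The folds leaned to one side of 0 while staying small. The log2 fold was above 0 in 38 of 48 large subunit genes (79.2%) and 26 of 29 small subunit genes (89.7%), against 48.9% of all genes tested. Its median was 0.14 in each subunit and -0.01 over all genes, with quartiles at 0.02 and 0.23 in the large and at 0.07 and 0.25 in the small subunit. Among the 6847 genes of the same range of levels, 49.2% lay above 0. The 74 tested genes of the cytosolic ribosome, which makes all other proteins, lay further up: 73 were above 0, their median was 0.37, and 3 were higher by limma. These shares carry no test, since genes of one sample share its library.

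**Figure D2:**
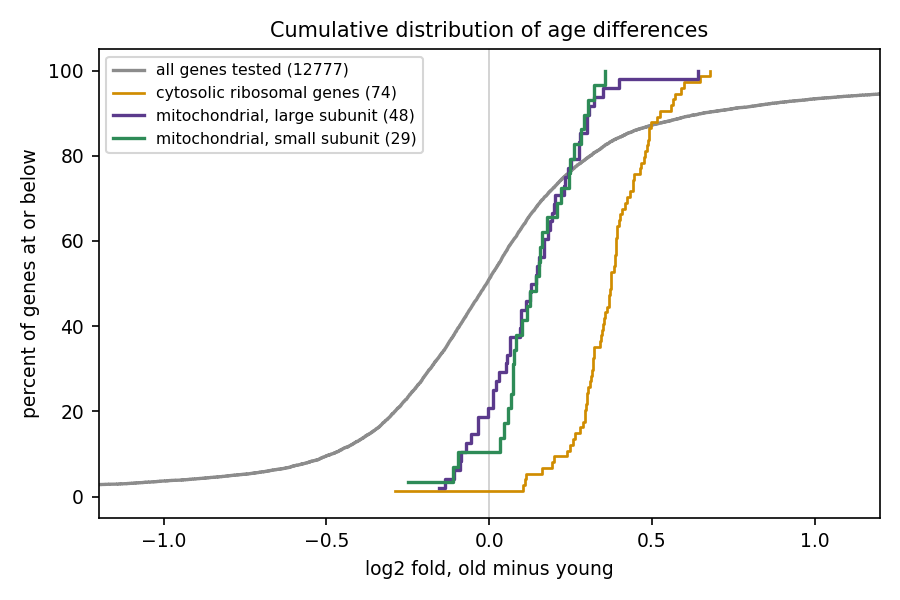
Cumulative share of genes (y axis) by log2 fold, old minus young (x axis), for the large subunit, the small subunit, the cytosolic ribosomal genes and all genes tested. The curves of both mitochondrial subunits (median 0.14 each) lie between that of all genes (-0.01) and that of the cytosolic ribosome (0.37).

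Single libraries stood apart within each age. On average over the large subunit, old 7 and old 9 lay 0.28 and 0.26 (log2) above the genes' own 12-sample means, and the other old samples between -0.07 and 0.03. Among young samples the large subunit ran from -0.25 in young 5 to 0.17 in young 9. The small subunit was highest in old 9 (0.20), old 7 (0.15) and young 1 (0.12), and lowest in young 5 (-0.23). The ages therefore overlapped in both subunits. Old 7 held the highest value of 24 of the 77 genes and old 9 of 21, while young 5 held the lowest of 25. Without old 7 and old 9, a choice made after seeing the data, the median fold over the 77 genes was 0.05 and 50 lay above 0. With young 9 left out as well it was 0.08 and 59 lay above 0. Leaving out single samples moved it between 0.09 (without old 7) and 0.18 (without young 1).

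**Figure D3:**
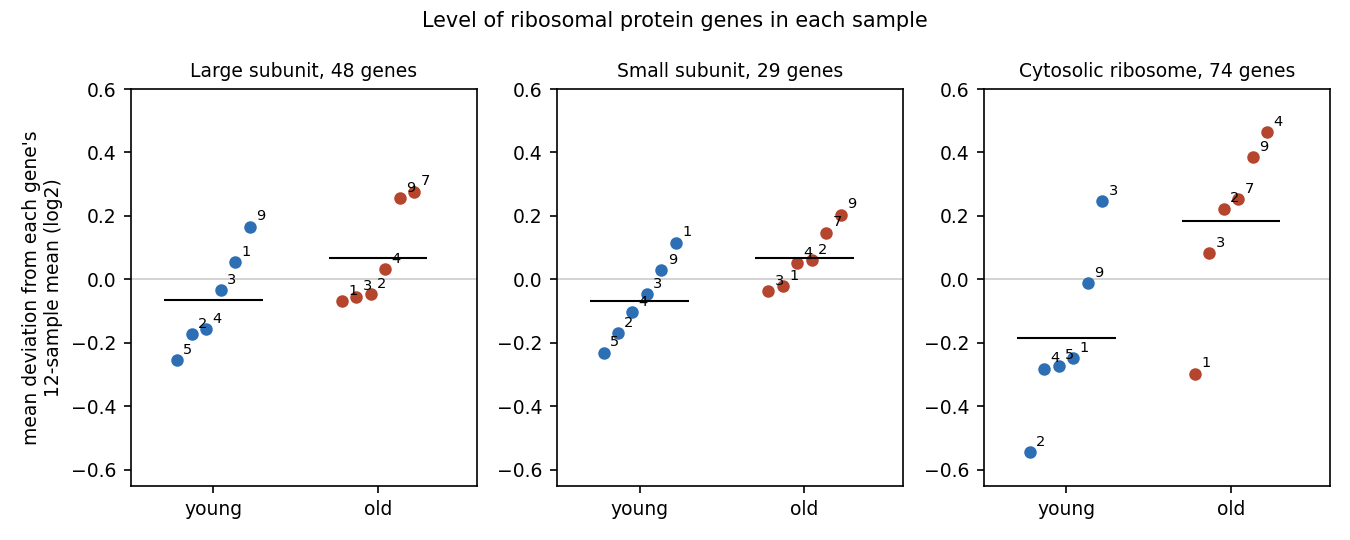
Mean deviation (log2) of the large subunit, the small subunit and the 74 cytosolic ribosomal genes from their 12-sample means, 1 panel each. Each point is 1 sample labelled with its number, young and old apart. In both mitochondrial subunits old 7 and old 9 lie highest (large subunit 0.28 and 0.26) and young 5 lowest (large subunit -0.25). Young 9 (0.17) is the highest young sample for the large subunit. For the cytosolic genes old 4 (0.46) is highest and young 2 (-0.54) lowest.

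Transcript length went with some of these sample differences and not with others. The median length of the 77 transcripts was 1288 bases, against 3001 for all tested genes, while their GC content was alike (50.7% and 50.4%). In old 9 and old 7, levels over all genes fell by 0.23 and 0.16 (log2) for each doubling of transcript length relative to the 12-sample mean. Young 5 (0.13), young 4 (0.10) and old 3 (0.08) had slopes of the opposite sign. Young 9, the highest young sample over the 77 genes (mean deviation 0.11), had a length slope of only 0.005. Young 2, with a mean deviation of -0.17, had a length slope of 0.05. For each 10% of GC content the slope was -0.17 in young 9 and old 9, -0.08 in old 7 and 0.13 in old 1. With GC and length trends both removed, the deviation was -0.001 in young 9 and -0.05 in young 2. Deviations then ran from -0.12 in old 3 to 0.11 in young 1 (-0.05 and 0.08 as deposited). With the length trend of each sample removed, the median fold of the 77 genes was -0.0009 with 38 above 0, and the median of all genes was -0.06. With GC alone removed the median fold of the 77 genes was 0.11 with 60 above 0, and the median of all genes was -0.05. Marker scores of other cells were entered beside age as covariates. The scores themselves differed in mean between old and young samples, at 9.78 against 8.21 for astrocytes and 7.36 against 8.76 for pericytes and smooth muscle (mean log2 level of the 10 markers), so such a fit cannot tell them fully apart from age. With the astrocyte score the median fold was 0.08 with 49 above 0, and with that of pericytes and smooth muscle 0.06 with 51 above 0. The part of the neuron markers was not tested.

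**Figure D4:**
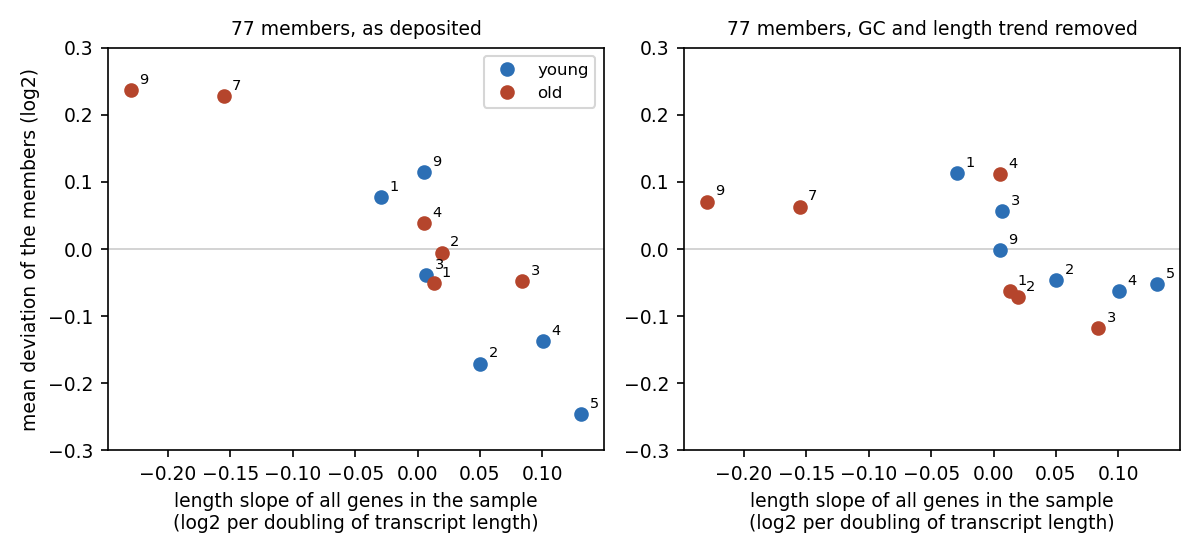
Each point is 1 sample, old or young; the x axis is the slope of log2 level on transcript length over all tested genes (log2 per doubling), and the y axis the mean deviation (log2) of the 77 genes, as deposited in one panel and with GC and length trends removed in the other. As deposited, old 9 (slope -0.23) and old 7 (-0.16) have the highest deviations and young 5 (0.13) the lowest. With both trends removed, young 1 has the highest deviation (0.11) and old 3 the lowest (-0.12).

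In summed level the large subunit genes held 53479 ± 5805 normalized counts in the old group, against 49800 ± 5554 in the young group (SD over 6 samples). The small subunit held 24903 ± 1972 and 22636 ± 2053. Together they summed to 78382 ± 7742 in old and 72436 ± 7416 in young samples. As a share of all signal this was 0.248 ± 0.0273% in old and 0.216 ± 0.0264% in young samples, which depends also on the total of each sample. The ratio of large to small was 2.14 ± 0.0741 against 2.199 ± 0.114, a difference smaller than the spread between samples. Young 9 stood out, with a ratio of 2.42.

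Per kilobase of transcript, levels differed widely within each subunit. In the large subunit Mrpl42, a protein that bacteria lack, had the highest mean level over the 12 samples (2628 normalized counts per kilobase), followed by Mrpl4 (2457) and Mrpl33 (1985). The lowest were Mrpl47 (92.0), Mrpl19 (115) and Mrpl57 (175). In the small subunit Mrps21 (2257), Mrps18c (1448) and Mrps12 (1263) had the highest levels per kilobase and Mrps35 (114), Mrps25 (125) and Mrps26 (184) the lowest. The lengths are those of GENCODE principal transcripts, not of the submitters' annotation, and the 6 lowest genes have annotated transcripts of 2877 to 6073 bases, which lowers a level per kilobase when a shorter form is expressed.

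Mrpl23, whose bacterial relative lines the exit of the peptide tunnel, had the highest fold of the 77 genes. Its normalized count was lowest at 379, in the median 460 and highest at 794 in old samples, and 233, 309 and 407 in young samples. The highest old value was that of old 7, and the lowest, that of old 2, lay below young 3 (393) and young 9 (407). The log2 fold was 0.64 (95% interval 0.22 to 1.07), with an adjusted p of 0.0656 by limma, 0.0674 by edgeR and 0.0270 by DESeq2, and an exact permutation p of 0.00866 (two-sided, unadjusted). All 6 old samples lay above the young median. Without old 7 the fold stayed above 0, and over 30 alternative settings it ran from 0.42, with the length trend removed, to 0.72, without young 9. The threshold was passed in 3 of these settings, among them without young 9 (limma, adjusted p = 0.0410), and the adjusted p ran from 0.0270 to 0.470. A pseudogene of Mrpl23 is annotated, so its reads may have been split.

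Mrpl32, a protein that a mitochondrial protease matures before it joins the ribosome, ran from 504 through a median of 657 to 889 in old and from 436 through 521 to 579 in young samples. Old 1 was the lowest old sample and the ages overlapped. Its log2 fold was 0.40 (limma, adjusted p = 0.115). Mrpl18, whose bacterial relative binds ribosomal RNA of the central protuberance, had values of 1149 to 1940 (median 1505) in old and 998 to 1559 (median 1168) in young samples, a log2 fold of 0.32 (limma, adjusted p = 0.180). Mrpl13, a core protein of the large subunit, had a log2 fold of 0.31 (limma, adjusted p = 0.235). Its partner on the opposite strand, the MDM2-binding protein gene Mtbp, was higher in old samples (log2 fold 0.76, limma adjusted p = 0.0160). Exons of the pair overlap, and whether reads were counted by strand is not given in the sources used here.

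Mrpl33, a short protein near the tRNA exit site, showed how single libraries set a spread. Old values ran from 812 through 861 to 1603, the highest in old 7. Young values ran from 560 through 716 to 1629, the highest in young 9, while the next young sample stood at 832. Its log2 fold was 0.35 (limma, adjusted p = 0.400) and 0.56 without young 9. With the astrocyte score as a covariate it was -0.07.

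**Figure D5:**
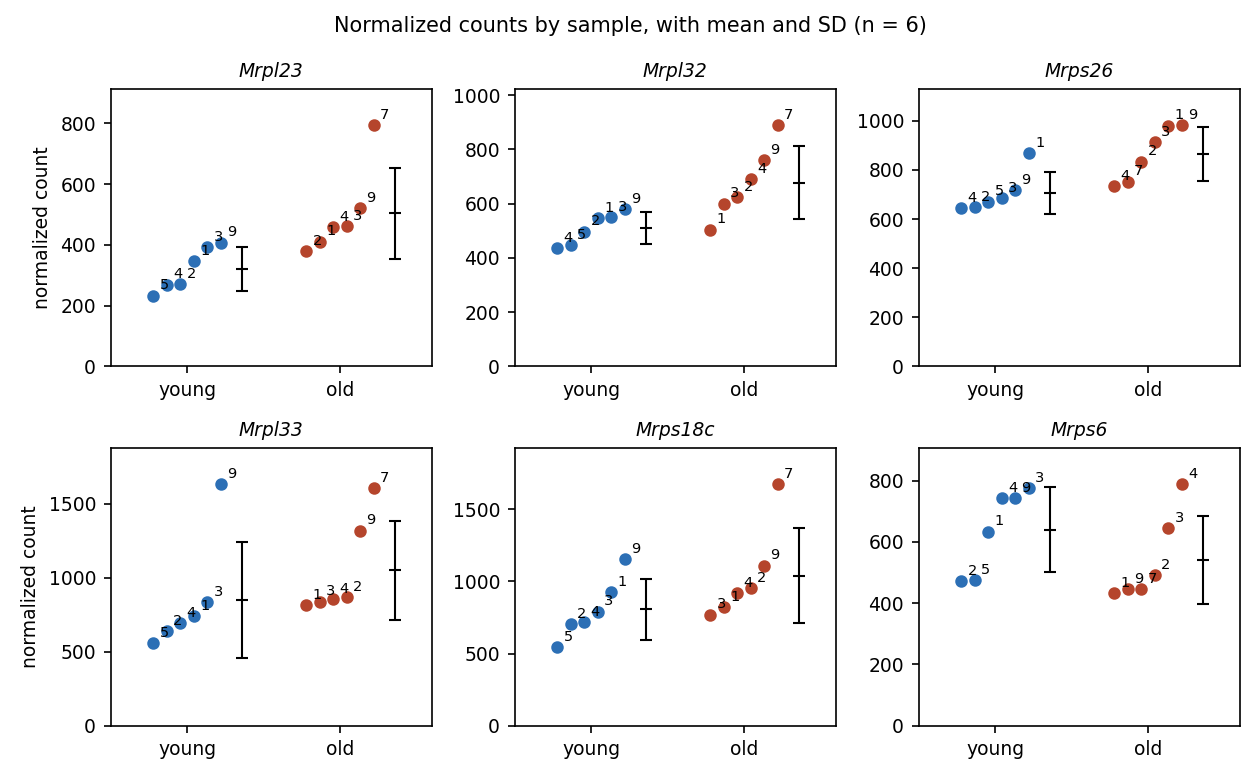
Normalized counts (y axis) of Mrpl23, Mrpl32, Mrps26, Mrpl33, Mrps18c and Mrps6 in each of the 6 young and 6 old samples, 1 point per sample. The ages overlap for all 6 genes, with old 7 highest for Mrpl23 (794) and young 9 highest for Mrpl33 (1629).

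At the other end of the large subunit stood Mrpl17, a core protein whose bacterial relative lies by the tunnel exit. It had 2096, 2265 and 2431 (lowest, median, highest) in old and 2186, 2573 and 2926 in young samples. All 6 old samples lay below the young median, but the log2 fold was only -0.15 and did not pass (limma, adjusted p = 0.327). Mrpl28 (-0.14), Mrpl38 (-0.11), Mrpl57 (-0.09) and Mrpl52 (-0.09) had the next lowest log2 folds. None of these 4 passed either (lowest limma adjusted p among them 0.502).

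Of the 9 genes named for their roles, 4 had folds near 0, and the other 5 (Mrpl33, Mrps30 and the Mrps18 genes) are described beside their kin. Mrpl12, which forms the stalk that recruits translation factors and has been reported in mammals to bind the mitochondrial RNA polymerase, had a log2 fold of -0.05. Mrpl44, a protein with a ribonuclease III fold, had 0.03. In the small subunit, Mrps12, which sits at the decoding centre, had 0.07, and Mrps34, in which mutations cause Leigh syndrome in humans, had 0.10. Their limma adjusted p ran from 0.737 to 0.905.

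In the small subunit the smallest p was that of Mrps26, a protein that bacteria lack. Its values were 733, 873 and 982 (lowest, median, highest) in old and 644, 677 and 870 in young samples, the last in young 1. The log2 fold was 0.29, with 6 of 6 old samples above the young median (limma, adjusted p = 0.157). Mrps28 (0.32, adjusted p = 0.164) and Mrps14 (0.30, adjusted p = 0.205), the other small subunit genes with an unadjusted limma p under 0.05, also stayed short of the threshold.

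The 3 genes of the Mrps18 family derive from a single bacterial protein. Mrps18c had the highest log2 fold of the small subunit, 0.36, with values of 770 to 1673 in old (median 937) and 544 to 1157 in young samples (median 755). Old 7 held its highest old value and young 9 its highest young value, and it did not pass (limma, adjusted p = 0.297). Mrps18b (0.26, adjusted p = 0.400) and Mrps18a (0.25, adjusted p = 0.238) had folds of the same sign.

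Mrps6, the relative of a bacterial protein of the platform of the small subunit, had the lowest log2 fold of the small subunit, -0.25. Its old samples ran from 431 through 468 to 787 and its young samples from 472 through 688 to 774, with old 4 above every young sample (limma, adjusted p = 0.438). Mrps6 shares exons on the same strand with Slc5a3, the gene of a myo-inositol transporter, so reads of the pair may not have been told apart. Mrps5 (-0.11) and Mrps15 (-0.10), both core proteins, were the other small subunit genes below 0. Mrps2 (0.03) and Mrps21 (0.05) were just above it.

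A symbol does not always give the place in the particle. In structures of the mammalian mitoribosome, Mrps30 and Mrps18a sit in the large subunit, and Mrps36 is now known as a subunit of the alpha-ketoglutarate dehydrogenase complex. Their log2 folds were 0.16, 0.25 and 0.28. Sorted by position, 50 large subunit genes had a median log2 fold of 0.15 and 26 small subunit genes one of 0.12. In the large subunit the 29 genes with a bacterial relative had a median of 0.18 (24 above 0) and the 19 without one 0.10 (14 above 0). In the small subunit the medians were 0.10 for the 14 with and 0.10 for the 9 without, 11 and 9 of them above 0. The difference between these classes was not tested.

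Within an age, the genes moved together only loosely. The median correlation between pairs of the 77 genes, taken on deviations from the age means over the 12 samples, was 0.28. It was 0.35 within the large subunit, 0.20 within the small subunit and 0.25 between them. Cytosolic ribosomal genes reached 0.79 among themselves and 0.26 with the mitochondrial ones, and genes of the same range of levels -0.0009. All points of a pair share their libraries, and the values were not corrected for the length trend or for the samples that stood apart.

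The rest of the mitochondrial translation machinery also had few calls. By limma 6.94% of all tested genes passed, and 23.8% had an unadjusted p under 0.05. At the first share, lists of this size would hold few calls. Of 7 ribosomal proteins named otherwise or listed under an older symbol, which include Mrpl57, 0 were higher or lower by limma (0 at an unadjusted p under 0.05), with a median log2 fold of 0.13. The smallest p was that of Chchd1, a small subunit protein (0.35, adjusted p = 0.261). Of 28 assembly and rRNA modification factors 0 passed (2 at an unadjusted p under 0.05, median 0.12), the nearest being the RNA methyltransferase Trmt61b (0.50, adjusted p = 0.176). Of 18 translation factors 0 passed by limma and 1 at an unadjusted p under 0.05. This was the release factor Mtrf1, at 238 ± 51.9 in old and 154 ± 18.4 in young samples (log2 fold 0.61, limma adjusted p = 0.0647, edgeR 0.0636, DESeq2 0.0126).

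The 17 mitochondrial aminoacyl-tRNA synthetases, which charge the tRNAs, had a median log2 fold of -0.02, and 0 passed by limma (2 at an unadjusted p under 0.05). Fars2, the phenylalanyl-tRNA synthetase, came nearest: its old samples ran from 815 through 890 to 1017 and its young samples from 664 through 734 to 760, with no overlap. Its log2 fold was 0.31 (limma adjusted p = 0.0788, edgeR 0.0655, DESeq2 0.0114). Of 21 import genes 0 passed by limma (3 at an unadjusted p under 0.05), with 16 above 0 and a median of 0.20, and Timm44, which tethers the import motor to the inner membrane channel, had the smallest p (0.32, adjusted p = 0.118).

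A single gene passed in each of the remaining lists. Polg, the catalytic subunit of the mitochondrial DNA polymerase, was the 1 of 19 genes of mitochondrial DNA maintenance, transcription and RNA processing that passed, and it was lower in old samples. It ran from 1161 through 1834 to 2271 in old and from 2244 through 2529 to 2796 in young samples, so that only the highest old and the lowest young values crossed. Its log2 fold was -0.50 (limma adjusted p = 0.0484, edgeR 0.0680, DESeq2 0.0246). The call held in 13 of 30 alternative settings, with a log2 fold of -0.58 to -0.32. It was lost without old 2, old 7, old 9, young 1, young 2, young 3, young 4 or young 5, each left out alone (limma adjusted p 0.0613 to 0.104). As covariates, the astrocyte score (limma adjusted p = 0.333) and that of pericytes and smooth muscle (0.335) also lost it. So did no filter, quantile normalization, no variance trend, a block for title numbers, and leaving out old 7 and old 9 with or without young 9. The median of the list was -0.05, and 2 of its 19 genes had an unadjusted limma p under 0.05.

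Ppargc1a, the coactivator PGC-1 alpha that drives mitochondrial biogenesis, was the 1 of 11 regulators of these genes that passed, and it was higher in old samples. Its values were 85.6, 147 and 224 (lowest, median, highest) in old and 29.7, 59.7 and 102 in young samples, with 6 of 6 old samples above the young median. The log2 fold was 1.27 (limma adjusted p = 0.0400, edgeR 0.0630, DESeq2 0.0125). It passed in 15 of 30 alternative settings, with a log2 fold of 0.98 to 1.62. It was lost without old 1, old 2, old 4, old 7, young 1, young 3, young 4 or young 5, each left out alone (limma adjusted p 0.0629 to 0.0892). As covariates, the astrocyte score (limma adjusted p = 0.348) and that of pericytes and smooth muscle (0.145) also lost the call. So did no filter, a filter at a mean of 100, quantile normalization and a block for title numbers. The factors whose motifs were searched in the promoters did not pass by limma: Nrf1 had a log2 fold of -0.09 (limma, adjusted p = 0.579), Gabpa, which binds the ETS core, -0.25 (0.113), and Yy1 0.11 (0.784). By DESeq2 Gabpa passed (adjusted p = 0.0456), with 6 of 6 old samples below the young median. The log2 folds of the 11 regulators ran from -2.77 to 1.27, with a median of -0.09. An unadjusted limma p under 0.05 was found for 5 of them, against 23.8% of all genes tested.

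Of the 30 tested partners on the opposite strand, 2 are themselves mitochondrial ribosomal genes, Mrpl46 and Mrps11. Among the other 28, 16 had a log2 fold above 0 and the median was 0.04. By limma 1 of them was higher (Mtbp) and 0 were lower, where 3.73% of all genes were higher and 3.21% lower. Besides Mtbp, Fau, the partner of Mrpl49 that encodes a cytosolic ribosomal protein, had 0.42 (limma, adjusted p = 0.141) where Mrpl49 had 0.13. Psma2 had 0.25 (0.460) beside Mrpl32 at 0.40.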

How the data were processed

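RNA was sequenced from brain endothelial cells in 12 samples, prepared per the labels' protocols with SMART-seq v4 cDNA and Nextera XT libraries. Tools listed in the submitters' processing notes are STAR 2.4.2a, Cuffdiff 2.2.1, FastQC 0.11.2 and R 3.2.2, with build mm9. How reads were counted, with which annotation and whether by strand, is not given in the sources used here. A single file was deposited by the authors, with a signal per gene that its name describes as normalized counts. After division by each column's smallest step 100% of values were whole within 0.001, so whole reads were recovered. Depth was 25809500 to 40393800 reads in genes.

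Values were tested as log2(value + 1) with limma 3.58.1 in R 4.3.3 (mean-variance trend, age as the only term) for the 12777 genes with a mean of at least 10. Benjamini-Hochberg adjustment ran over all of them, with a threshold of 0.05. Folds on this scale slightly understate changes of low genes. Recovered reads went into edgeR 4.0.16 (quasi-likelihood, 12580 genes, 761 called) and DESeq2 1.42.0 (1408 called). Exact permutation tests ran over 924 labellings (smallest possible p 0.00216).

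Genes and lists were chosen with earlier results of these data known. Named genes were the 5 highest and 5 lowest folds and the 3 highest and 3 lowest levels per length of each subunit, genes listed for their roles, and in each related list those that passed or the smallest p. Genes paired with Mtbp, Fau, Psma2 and other neighbours were named after their values were seen. Transcript lengths and GC came from GENCODE M21, available for 99.4% of tested genes, and promoters from RefSeq, both in a later build than mm9, so no coordinates were converted. In total 22 of the 77 genes have exons that overlap those of another gene, for most of them on the opposite strand only. Mrps6, Mrps24 and Mrps34 overlap a gene on the same strand. Opposite-strand overlap mixes reads only if they were not counted by strand. A named pseudogene is annotated for 3 genes (Mrpl23, Mrpl48, Mrps36), which may split their reads. Other settings tried were the pseudocount, filter, scaling, tool, sample weights, the variance model, a block for title numbers, marker scores as covariates, GC and length trends, and samples left out.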

Additional observations from a re-analysis of the deposited data

Results flagged for a closer look

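In 7 of 90 groups of 6 samples examined, 1 sample lay apart from the other 5 by more than Dixon's critical value allows. Chance gives such a gap in about 1 in 20 groups. Young 9 had a large to small subunit ratio of 2.416, where the next young sample had 2.208. Young 9 also had the highest young normalized count of Mrpl33 (1629, next 831.8), Mrpl42 (2882, next 1730) and Mrps25 (964.1, next 716.2). Young 1 was high in Mrps26 (869.9, next 717.4) and in Mrps35 (672.2, next 469.6). Among old samples, Mrpl23 in old 7 stood at 794.4, with the next at 522.4. Leaving young 9 out took Mrpl23 past the threshold (limma, adjusted p = 0.0410).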

How the results depend on the processing

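Over all settings tried, the count of large subunit genes called higher was 0, except for 1, Mrpl23, by DESeq2, with sample weights and without young 9. Leaving out each sample therefore gave 0 to 1. Counts of the small subunit, and of lower genes, were 0 throughout. Between the ages 10 samples share title numbers, but same-numbered samples correlated at only -0.16 to 0.098 and 1 of 10 correlated best with its own number. The replicate block called 610 genes, against 472 in the same 10 samples without it, with 0 of the 77 called in both and a median log2 fold of 0.06 over them. The lowest mean of a gene was 254 normalized counts, so the filter on low values removed none.

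Removing the length trend took the median of the large subunit to -0.0048 and of the small subunit to 0.034. GC and length together took them to -0.0049 and 0.032. Of the 77 genes 38 lay above 0 with length alone removed and 39 with both, against 64 as deposited. Each removal also set the mean deviation of a sample over all genes to 0. The median fold of all genes was -0.06 in both of these fits, against -0.01 as deposited. The medians of both subunits stayed above that of all genes. With the score of mural cells (pericytes and smooth muscle) as a covariate the medians were 0.06 and 0.11, with the astrocyte score 0.02 and 0.11. The cause was not tested.

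Over all 77 genes, 26 changed sign with length removed, 25 with GC and length, 19 with the astrocyte score, 17 with the mural score, 16 without old 7 and old 9, 14 with the block, 9 with young 9 left out as well, and 0 to 7 under each other setting. Each setting was followed gene by gene only for the 33 named ribosomal and 7 named related genes. Among these, 61 values changed sign, from log2 folds between -0.11 and 0.15 except for Mrpl33 (0.35). With GC and length removed the named genes that turned were Mrpl42 (-0.22), Mrps2 (-0.049), Mrps21 (-0.18), Mrps12 (-0.15), Mrpl44 (-0.12) and Mrps34 (-0.095). With length alone they were Mrpl42 (-0.22), Mrps2 (-0.065), Mrps21 (-0.19), Mrps12 (-0.16), Mrpl44 (-0.13) and Mrps34 (-0.11), and with GC alone Mrpl42 (-0.014) and Mrpl44 (-0.0015). With the astrocyte score they were Mrpl33 (-0.068), Mrpl42 (-0.26), Mrpl47 (-0.16), Mrps5 (0.043), Mrps21 (-0.057), Mrps25 (-0.13) and Mrps34 (-0.016). With the mural score they were Mrpl42 (-0.20), Mrpl47 (-0.14), Mrps21 (-0.12), Mrps12 (-0.018), Mrps35 (-0.051), Mrpl12 (0.00022) and Mrpl44 (-0.13). Quantile normalization turned Mrpl4 (0.032) and Mrps35 (-0.0068), and sample weights Mrpl42 (-0.044) and Mrps21 (-0.057). The block turned Mrpl42 (-0.19), Mrps21 (-0.10), Mrps12 (-0.0037), Mrpl44 (-8.2e-05) and Mrps34 (-0.021). Without old 7 and old 9 they were Mrpl42 (-0.21), Mrpl47 (-0.13), Mrps21 (-0.17), Mrps25 (-0.076) and Mrpl44 (-0.014), and without young 9 as well Mrpl42 (-0.055), Mrps21 (-0.11) and Mrpl12 (0.039). Leaving out single samples gave ranges of -0.12 to 0.020 for Mrpl12, -0.066 to 0.035 for Mrpl4, -0.13 to 0.17 for Mrpl42, -0.026 to 0.092 for Mrpl44, -0.0091 to 0.28 for Mrpl47, -0.0086 to 0.092 for Mrps2 and -0.055 to 0.13 for Mrps21.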
